A study of Mus musculus with 6 samples.

Results

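Annexins are proteins that bind negatively charged phospholipids when calcium rises, through a conserved core of repeated helical domains. They gather at the inner face of the plasma membrane and on endosomes, where they take part in membrane repair, vesicle traffic and the organization of the cortical cytoskeleton, and some of them reach the cell surface. Annexin A1 is known as a glucocorticoid-induced mediator of the resolution of inflammation, including in the injured gut. Annexin A5 binds phosphatidylserine on dying cells, and annexin A2 binds plasminogen and its activator at the cell surface. The genes described here are *Anxa1*, *Anxa2*, *Anxa3*, *Anxa4*, *Anxa5*, *Anxa6*, *Anxa7*, *Anxa8* and *Anxa11*, taken by symbol from the tag-count tables, and make up 9 of 20327 gene symbols.

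Tags were counted by 5′Tag-seq, which reads the 5′ side of polyA transcripts, in stromal cells sorted from the colon of C57BL/6 mice of 9 to 15 weeks. All mice carried *Il11-Egfp*, a transgene that reports *Il11* through EGFP and was built on a bacterial artificial chromosome, and all received 1.5% dextran sulfate sodium (DSS) in drinking water for 5 days, then regular water until sorting on day 7. DAPI-negative cells without Ter119, CD45, CD31 and EpCAM were split into EGFP-Positive (IL-11+) and EGFP-Negative (IL-11-) cells, with 3 libraries per group. The reporter follows *Il11* promoter activity in a transgenic line, untreated colon is not analysed here, and the IL-11- group holds every cell type that passes the gate without EGFP. Replicates 1, 2 and 3 of EGFP-Negative cells were counted at 1057170, 1078179 and 1169817 tags in total, and those of EGFP-Positive cells at 1046538, 1022851 and 1049048. At these depths 3 tags, taken as the floor, correspond to between 2.56 and 2.93 CPM (tags scaled to a total of 1e6).

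*Il11*, the cytokine gene whose promoter drives the reporter, was counted at 28, 51 and 89 tags in EGFP-Negative and 1357, 732 and 2658 tags in EGFP-Positive replicates, in the direction of the labels. Since the transgene contains part of *Il11*, tags of the transgene and of the gene itself may not be separable. The groups also differed in markers of other stromal cells. Of 9 pericyte and smooth muscle markers, 8 were called lower in IL-11+ cells, as were 6.37% of tested genes, and the summed level of the list was 3797.3, 3901.5 and 4262.4 normalized CPM (scaled tag counts) in EGFP-Negative libraries against 495.0, 471.1 and 543.6 in EGFP-Positive libraries. *Rgs5*, a pericyte gene, was the most abundant of them, and *Kcnj8*, a potassium channel gene of pericytes, was the marker that went the other way, with a log2 fold change of 0.71 (adjusted p = 0.0394 by edgeR's quasi-likelihood test, SE 0.227). *Kcnj8* missed the adjusted p threshold with DESeq2 (adjusted p = 0.0576), with scaling by library size only (0.0627) and without 4 of the 6 libraries (up to 0.192). Among enteric glia markers, *Gfap* fell from 22, 23 and 26 tags in EGFP-Negative to 1, 0 and 1 tags in EGFP-Positive libraries (adjusted p = 1.48e-05), where it was under the floor so that the size of the fall is not given. In bulk samples fewer cells of a type and less RNA per cell cannot be told apart.

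Fibroblast genes were abundant on both sides of the gate. *Dcn*, encoding the matrix proteoglycan decorin, stood at 12085.2 ± 1232.6 normalized CPM in EGFP-Negative and 19216.9 ± 6171.9 in EGFP-Positive cells (SD, n = 3). The 8 fibroblast markers summed to 21742.0 ± 1575.9 and 34495.9 ± 5931.1 normalized CPM, with *Dcn* and *Col3a1* the largest parts. On adjusted p 4 of the 8 rose, 1 fell and 3 did not pass, beside 6.84% of tested genes higher and 8.7% lower. The member that fell, *Lum* (adjusted p = 0.0378), missed the threshold without 4 of the 6 libraries (up to 0.198). The rise of *Dcn* (adjusted p = 0.0462) missed the threshold with a mean of at least 10 tags (0.0547) and without 5 of the 6 libraries (up to 0.227). *Thy1* (log2 fold change 0.88, adjusted p = 0.00832 by edgeR's quasi-likelihood test) missed it without EGFP-Negative replicate 2 (0.0638). *Col3a1* (1.04, adjusted p = 0.00134) and *Pdpn* (1.06, adjusted p = 0.000256) stayed past it in all 13 alternatives. Markers of epithelium, leukocytes and endothelium, which the sort removed, had at most 13 tags per gene and library. Epithelial markers, led by *Krt8* and with *Epcam* at 1 tag or fewer per library, summed to between 1.88 and 18.9 normalized CPM. Leukocyte markers, led by *Cd68* and with *Ptprc* (CD45) at 7 tags or fewer per library, summed to between 15.1 and 37.1, and endothelial markers, led by *Kdr* and with *Pecam1* at 1 tag in 1 library, to between 0 and 4.77. Mesothelial markers, led by *Wt1*, summed to 12.7 ± 6.2 in EGFP-Negative and 0.989 ± 0.956 in EGFP-Positive cells. The hemoglobin gene *Hbb-bs* was uneven among the EGFP-Negative libraries, at 34, 0 and 141 tags, and reached 9 tags in EGFP-Positive libraries.

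Annexin genes differed between the groups in both directions. Under the call rule of the study (over 2-fold, with an adjusted p under 0.05), *Anxa1* and *Anxa11* fell in IL-11+ cells and 0 of 9 annexins rose, where 6.37% of the 9334 tested genes were called lower and 3.44% higher. The count of 0 was the same with DESeq2 and at an unadjusted p under 0.05 with the same fold. On adjusted p alone, *Anxa5* rose as well, so that 1 annexin was higher and 2 were lower, beside 6.84% of tested genes higher and 8.7% lower. With replicate numbers as blocks, *Anxa2* joined the higher and *Anxa6* the lower members, giving 2 and 3 beside 9.33% and 11.2% of tested genes. The 6 libraries did not overlap between groups after TMM scaling for 5 annexins that were lower and 2 that were higher, and 16.7% and 14.5% of tested genes separated in these directions. Over the 9 annexins the log2 fold changes had a median of -0.56, beside -0.01 over tested genes. Summed over the family, annexin tags came to 1621.4 ± 149.0 normalized CPM in EGFP-Negative and 1635.4 ± 158.1 in EGFP-Positive cells (SD, n = 3), a difference within the spread of either group. With 9 genes these counts were not tested against the background. In the same libraries pericyte and smooth muscle markers and the glial gene *Gfap* were lower and some fibroblast markers higher, and the part of these cell types in the annexin differences, in either direction, was not tested.

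**Figure D1:**
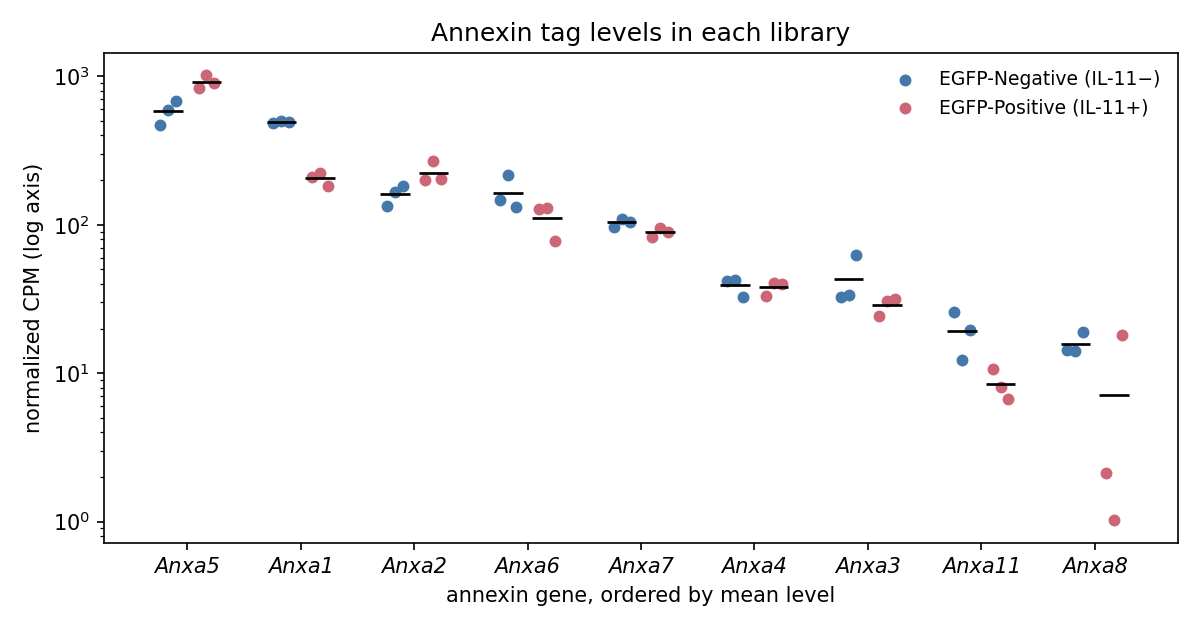
Normalized CPM (log axis) of the 9 annexin genes in each of the 3 IL-11- (EGFP-Negative, blue) and 3 IL-11+ (EGFP-Positive, red) libraries, with a black line at each group mean and genes ordered by their mean over the 6 libraries. *Anxa1* lay between 486.0 and 503.1 in EGFP-Negative and between 182.1 and 224.4 in EGFP-Positive libraries, whereas *Anxa5* was higher in each EGFP-Positive library than in any EGFP-Negative library.

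*Anxa1* encodes annexin A1, whose N-terminal peptide acts on formyl peptide receptors of leukocytes and epithelium and limits neutrophil entry. It gave 509, 534 and 600 tags in the EGFP-Negative replicates numbered 1, 2 and 3, and 198, 221 and 191 tags in their EGFP-Positive counterparts. The libraries of a group lay close together and the groups were far apart, at 493.9 ± 8.63 and 205.5 ± 21.5 normalized CPM (SD, n = 3). This was a 2.4-fold lower level in IL-11+ cells, with a log2 fold change of -1.27 (SE 0.162, 95% interval -1.61 to -0.92, adjusted p = 1.94e-05 by edgeR's quasi-likelihood test). The call stood in each of the 13 alternatives, where the log2 fold change ranged from -1.35 to -1.19.

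Genes around annexin A1 were read from a list of its receptors and from the phospholipases A2, the enzymes that free arachidonic acid and that annexin A1 was first described as inhibiting. Of 5 receptor genes in the list, *Fpr1* had 1 tag in EGFP-Negative replicate 2 and 0 tags in the other libraries, and the other 4 were not analysed here. Of 8 phospholipase A2 genes, 2 had enough tags for the test and 1 of them rose on adjusted p, as did 6.84% of tested genes. This was *Pla2g4a*, encoding the calcium-dependent cytosolic enzyme, at 60, 45 and 48 tags per EGFP-Negative and 140, 159 and 166 tags per EGFP-Positive library. The groups were well separated, at a log2 fold change of 1.75 (adjusted p = 2.5e-06 by edgeR's quasi-likelihood test, SE 0.187). *Pla2g12a*, encoding a secreted enzyme, had a log2 fold change of 0.53 with an adjusted p of 0.365.

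*Anxa2* encodes annexin A2, which forms a heterotetramer with the S100 protein encoded by *S100a10* and holds plasminogen and tissue plasminogen activator at the cell surface. *Anxa2* was counted at 141, 177 and 221 tags per EGFP-Negative and 190, 265 and 212 tags per EGFP-Positive library. After scaling, the groups did not overlap but lay near each other, at 161.0 ± 24 and 224.2 ± 38.8 normalized CPM (SD, n = 3). This difference, a log2 fold change of 0.48 (SE 0.178, 95% interval 0.10 to 0.85), missed the threshold without the block (adjusted p = 0.0831) and passed with replicate numbers as blocks (adjusted p = 0.0208, both by edgeR's quasi-likelihood test).

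Its partner *S100a10* went the opposite way, at 346, 441 and 296 tags per EGFP-Negative and 182, 150 and 142 tags per EGFP-Positive library. Every EGFP-Positive library was below every EGFP-Negative library, and the log2 fold change was -1.04 (adjusted p = 0.00127 by edgeR's quasi-likelihood test, SE 0.202). It dropped under the fold threshold, at -0.83 and -0.93, without EGFP-Negative replicate 2 and without EGFP-Positive replicate 3, with the adjusted p at 0.0176 or less in all alternatives. Per *S100a10* tag, there were 0.518 ± 0.198 *Anxa2* tags in EGFP-Negative and 1.43 ± 0.365 in EGFP-Positive libraries (SD, n = 3), with no overlap between 0.401 to 0.747 and 1.04 to 1.77.

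Other S100 proteins bind the N termini of annexins, and of the 5 genes in this list, 4 had enough tags for the test. *S100a4*, a gene of motile mesenchymal cells, rose with a log2 fold change of 1.66 (adjusted p = 5.11e-05 by edgeR's quasi-likelihood test, SE 0.232), though 64% of the 50-base windows at its 5′ end also occur in the transcript *Gm42674*, so that its tags may be shared. *S100a6*, whose product binds annexin A11 and annexin A2, rose from 951.1 ± 111.5 to 1474.4 ± 145.5 normalized CPM (adjusted p = 0.0142), but missed the threshold without EGFP-Negative replicate 1 (0.0742) and without EGFP-Positive replicate 2 (0.0584). Thus 2 of these genes were higher and 1 was lower on adjusted p, beside 6.84% and 8.7% of tested genes, with a median log2 fold change of 0.37. *S100a11*, which encodes the partner of annexin A1, had a log2 fold change of 0.10 (adjusted p = 0.767), and 70.5% of its 5′ windows recur in other transcripts.

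In the plasminogen system at the cell surface, 7 of 9 genes were tested, and on adjusted p 2 rose and 1 fell, where 6.84% and 8.7% of tested genes did. The median log2 fold change was 0.18. *Plat*, encoding tissue plasminogen activator, fell from 299.7 ± 47.5 to 105.3 ± 17 normalized CPM (SD, n = 3), and its log2 fold change was -1.51 (adjusted p = 1.11e-05 by edgeR's quasi-likelihood test, SE 0.182). *Plaur*, the receptor of urokinase, rose by a log2 fold change of 1.13 (adjusted p = 0.00122), which came to 0.99 without EGFP-Positive replicate 3. The protease inhibitor gene *Serpine2* showed the largest difference of the list, at 315, 222 and 232 tags per EGFP-Negative and 1496, 730 and 1361 tags per EGFP-Positive library (log2 fold change 2.37 ± 0.248 SE, adjusted p = 1.91e-06). With replicate numbers as blocks, *Eno1*, an enolase that can serve as a plasminogen receptor, passed as well (adjusted p = 0.0651 without and 0.016 with the block). *Eno1* was named after its values were seen, and 34.2% of its 5′ windows recur in other transcripts.

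*Anxa5* encodes annexin A5, which binds exposed phosphatidylserine and was first isolated as an anticoagulant protein. It gave 494, 627 and 827 tags in the EGFP-Negative replicates numbered 1, 2 and 3, and 792, 1003 and 954 tags in their EGFP-Positive counterparts. Raw tags overlapped at the edge, since EGFP-Negative replicate 3 had more tags than EGFP-Positive replicate 1, but scaled levels did not, at 471.7 to 679.1 against 839.4 to 1018.4 normalized CPM. *Anxa5* rose 1.59-fold, with a log2 fold change of 0.67 (SE 0.175, 95% interval 0.30 to 1.04, adjusted p = 0.0128 by edgeR's quasi-likelihood test). It lost the threshold without EGFP-Negative replicate 1 (adjusted p = 0.0885), without EGFP-Negative replicate 2 (0.0561) and without EGFP-Positive replicate 2 (0.0732), and the 95% interval extends past a 2-fold difference only at its upper end.

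Genes that expose phosphatidylserine or recognize it formed a list of 14, of which 9 were tested. On adjusted p 1 rose and 3 fell (6.84% and 8.7% of tested genes did), with a median log2 fold change of -0.35. The phospholipid scramblase gene *Plscr1*, also induced by interferon, rose from 36.5 ± 8.02 to 96.8 ± 19.3 normalized CPM (log2 fold change 1.40 ± 0.221 SE, adjusted p = 0.000179 by edgeR's quasi-likelihood test). Of its 5′ windows, 8.76% recur in *Gm5530*. Lactadherin and GAS6 bridge phosphatidylserine-bearing cells to phagocytes, and the genes of both fell. *Gas6*, the ligand of the TAM receptors, had a log2 fold change of -1.29 (adjusted p = 4.3e-05, SE 0.177), and *Mfge8*, encoding lactadherin, had a log2 fold change of -0.92 (adjusted p = 0.000629, SE 0.166). *Plscr4* fell too (log2 fold change -0.90, adjusted p = 0.0297), but missed the threshold with DESeq2 (0.0949) and without 4 of the 6 libraries (up to 0.135). *Axl*, a receptor of GAS6 and the most abundant gene of the list, had a log2 fold change of 0.30 that did not pass (adjusted p = 0.268).

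*Anxa11* encodes annexin A11, a member with a long disordered N terminus that tethers RNA granules to lysosomes. Its tags were few, 27, 13 and 24 in EGFP-Negative and 10, 8 and 7 in EGFP-Positive libraries. The groups did not overlap after scaling, at 19.2 ± 6.78 and 8.47 ± 1.98 normalized CPM (SD, n = 3), but EGFP-Negative replicate 2 at 12.2 stood near EGFP-Positive replicate 1 at 10.6. The log2 fold change was -1.18 (SE 0.394, 95% interval -2.01 to -0.36) at an adjusted p of 0.049 by edgeR's quasi-likelihood test. The call did not hold with RLE scaling (adjusted p = 0.0515), DESeq2 (0.136) or no filter on low genes (0.0527), nor when EGFP-Negative replicate 1 or 3 or any of the EGFP-Positive libraries was left out (highest adjusted p 0.218). It held without EGFP-Negative replicate 2 (adjusted p = 0.0311).

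*Anxa6* and *Anxa7* are the other members with intermediate levels. *Anxa6* encodes annexin A6, a large member with a duplicated core that is linked to endosomes and cholesterol. It was counted at 154, 230 and 160 tags per EGFP-Negative and 121, 128 and 81 tags per EGFP-Positive library. The scaled values nearly met, since the lowest EGFP-Negative library stood at 131.4 and the highest EGFP-Positive library at 130.0 normalized CPM. The log2 fold change was -0.56 (SE 0.22, 95% interval -1.02 to -0.10), with an adjusted p of 0.0994 without the block and 0.00809 with replicate numbers as blocks by edgeR's quasi-likelihood test. It also passed when libraries were scaled by size only (adjusted p = 0.0497) and without EGFP-Negative replicate 3 (0.0466), but came to -0.31 without EGFP-Negative replicate 2 (0.477) and -0.35 without EGFP-Positive replicate 3 (0.339), and DESeq2 gave an adjusted p of 0.197. *Anxa7*, whose product binds sorcin and ALG-2, ranged from 101 to 128 tags in EGFP-Negative and from 78 to 94 tags in EGFP-Positive libraries, with a log2 fold change of -0.22 (SE 0.169, 95% interval -0.57 to 0.14, adjusted p = 0.457).

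Proteins that close wounded membranes together with annexins were taken as a list of 17 genes, of which 15 were tested. On adjusted p by edgeR's quasi-likelihood test 0 rose and 2 fell, near the background of 6.84% and 8.7% of tested genes, with a median log2 fold change of -0.04. With scaling by library size only, 4 genes passed in either direction, beside 483 higher and 907 lower of 9334 genes. With no filter on low genes 5 passed, beside 812 higher and 1003 lower of 20327 genes. *Ahnak2*, a giant scaffold gene, fell from 71.1 ± 33.4 to 23.1 ± 9.21 normalized CPM (log2 fold change -1.60 ± 0.334 SE, adjusted p = 0.0023), and *Cavin1*, a coat gene of caveolae, fell from 238.8 ± 19.5 to 153.1 ± 19.5 (log2 fold change -0.64 ± 0.166 SE, adjusted p = 0.0118). *Cavin1* missed the threshold without EGFP-Negative replicate 2 (0.0543) and without EGFP-Positive replicate 1 (0.0615). With replicate numbers as blocks 4 genes were lower, beside 11.2% of tested genes, the added ones being *Ahnak* (adjusted p = 0.00122) and *Cav1* (0.00309), both named after their values were seen.

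*Anxa3*, *Anxa4* and *Anxa8* did not pass the test. *Anxa3*, a member for which functions outside membrane binding are less well defined, was counted at 34, 36 and 76 tags per EGFP-Negative and 23, 30 and 33 tags per EGFP-Positive library. Its EGFP-Negative mean rested on replicate 3, and the log2 fold change went from -0.59 (SE 0.282, 95% interval -1.18 to 0.01, adjusted p = 0.192) to -0.20 without that library. In GENCODE 4.06% of its 5′ windows also occur in *Gm42603*. *Anxa4*, known from epithelial and secretory membranes, ranged from 40 to 45 tags in EGFP-Negative and from 31 to 42 tags in EGFP-Positive libraries, and its log2 fold change of -0.04 had a 95% interval of -0.53 to 0.45 (adjusted p = 0.943).

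*Anxa8*, a gene of squamous epithelia whose product sits on late endosomes, was counted at 15, 15 and 23 tags per EGFP-Negative and 2, 1 and 19 tags per EGFP-Positive library. EGFP-Positive replicates 1 and 2 were under the floor of 3 tags, while replicate 3 lay within the EGFP-Negative range. The log2 fold change was -1.10 (SE 0.582, 95% interval -2.33 to 0.12, adjusted p = 0.24 by edgeR's quasi-likelihood test). Without EGFP-Positive replicate 3 the adjusted p was 0.0011 by the same test, so that this library decided the value. The EGFP-Positive libraries left were under the floor, so the size of that fall cannot be estimated from that fit. *Anxa9*, a member outside the 9, had 4 tags in EGFP-Negative replicate 1, 1 tag in EGFP-Positive replicate 2 and 0 tags in the other libraries, and *Anxa10* and *Anxa13* were not analysed here.

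**Figure D2:**
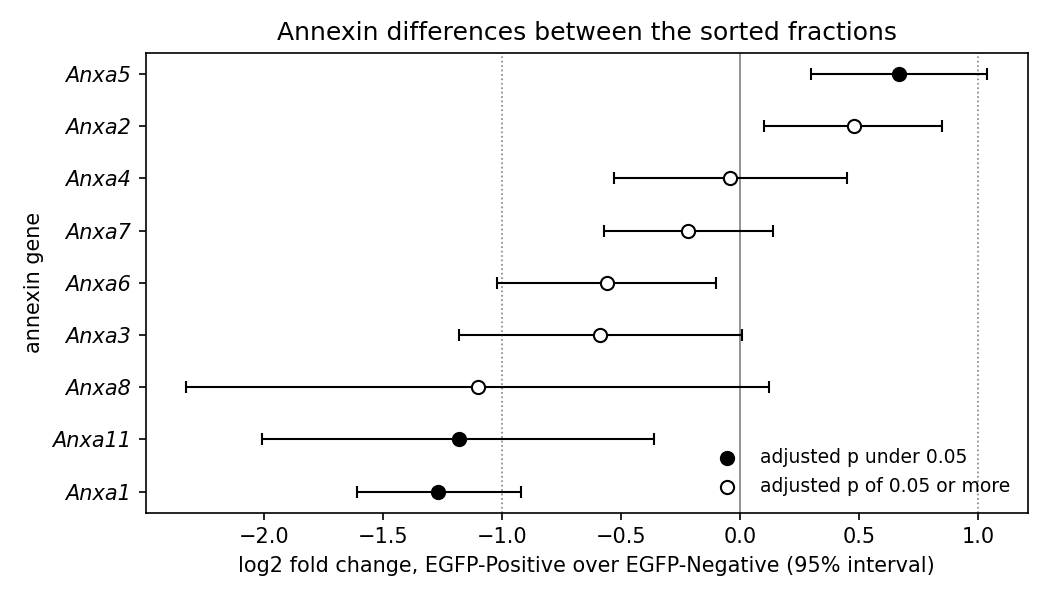
Log2 fold change of each annexin gene, IL-11+ over IL-11- cells (n = 3 libraries per group), with its 95% interval as a bar. Filled points mark an adjusted p under 0.05 by edgeR's quasi-likelihood test and dotted lines a 2-fold difference. *Anxa1* at -1.27 and *Anxa5* at 0.67 lie at the ends of the order.

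Levels of the members were compared per kilobase of transcript, although tags from the 5′ side need not rise with length. In IL-11- cells *Anxa5* (335 ± 60.1 normalized CPM per kilobase) and *Anxa1* (295 ± 5.15) led and overlapped. *Anxa2* (111), *Anxa6* (66.3), *Anxa7* (36.5), *Anxa3* (26.9), *Anxa4* (19.3), *Anxa8* (8.39) and *Anxa11* (8.04) followed, and *Anxa7* with *Anxa3*, *Anxa3* with *Anxa4* and *Anxa8* with *Anxa11* overlapped. Before division by length *Anxa6* (165.0 normalized CPM) and *Anxa2* (161.0) overlapped with *Anxa6* ahead, and *Anxa11* (19.2) was above *Anxa8* (15.8). In IL-11+ cells *Anxa5* stood apart at 533 ± 52.1 normalized CPM per kilobase. *Anxa2* (155 ± 26.8) took the second place above *Anxa1* (123 ± 12.8), and their normalized CPM came in the same order but overlapped (182.1 to 224.4 for *Anxa1*, 201.4 to 269.1 for *Anxa2*). *Anxa6* (44.9) and *Anxa7* (31.3) overlapped, as did *Anxa4* (18.6) and *Anxa3* (18) and, at the bottom, *Anxa8* (3.77) and *Anxa11* (3.54). Before division by length *Anxa11* (8.47 normalized CPM) was above *Anxa8* (7.08) in IL-11+ cells too, where the *Anxa8* mean rested on replicate 3.

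The makeup of the annexin tags differed between the groups, while their total did not differ beyond its spread. *Anxa1* supplied 30.6% ± 2.57 of annexin tags in EGFP-Negative and 12.6% ± 1.02 in EGFP-Positive libraries, and *Anxa5* supplied 35.6% ± 3.49 and 56.4% ± 1.84 (SD, n = 3). Per *Anxa5* tag there were 0.869 ± 0.153 *Anxa1* tags in EGFP-Negative and 0.224 ± 0.025 in EGFP-Positive libraries. The 9 annexins together made up 0.163% ± 0.0181 of all tags in EGFP-Negative and 0.156% ± 0.0185 in EGFP-Positive libraries.

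The 3 genes whose levels followed *Anxa1* most closely, of 9333 other tested genes, were *Polr3b*, *Esyt2* and *Pdgfc*, with Pearson's r of 0.998, 0.997 and 0.996 over the 6 libraries. These values describe 2 groups of 3 libraries, so that a gene with a like difference between the groups reaches a high r, and 200 genes exceeded 0.95. *Esyt2*, encoding a protein that tethers the endoplasmic reticulum to the plasma membrane, had a log2 fold change of -0.82. *Pdgfc*, a growth factor gene, was counted at 15, 18 and 19 tags per EGFP-Negative and 1, 2 and 1 tags per EGFP-Positive library, under the floor there, and *Polr3b*, a subunit gene of RNA polymerase III, had a log2 fold change of -0.72. Since these genes were chosen for following *Anxa1*, no p value is given for them.

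The annexin genes are spread over the genome, with *Anxa7*, *Anxa8* and *Anxa11* on chromosome 14 of GRCm38 at chr14:20455260-20480133, chr14:34085981-34100571 and chr14:25842156-25886804. *Anxa1* lies at chr19:20373428-20390944 on the minus strand and has 13 exons, and the noncoding gene *1500015L24Rik* runs through it on the other strand. *Anxa5* lies at chr3:36448923-36475894 on the minus strand, also with 13 exons, and *Anxa11* has an antisense gene, *Anxa11os*. Tags were mapped in one orientation. None of the 50-base windows in the first 300 bases of *Anxa1*, *Anxa2*, *Anxa4*, *Anxa5*, *Anxa6*, *Anxa7*, *Anxa8* or *Anxa11* transcripts occurred in another gene's transcript.

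Since tags come from the 5′ side of transcripts, the 250 bases before the RefSeq start (GRCm38.p6) were read, and stretches of them are shown for *Anxa1*, *Anxa11* and *Anxa5*, the members past the adjusted p. RefSeq windows were found for the members other than *Anxa3* and *Anxa6*. For the *Anxa11* and *Anxa8* windows and an *Anxa4* window, the 30 bases after the start were not found whole near the 5′ end of a GENCODE transcript. The *Anxa11* window ends at chr14:25842154 and the gene begins at chr14:25842156 in GENCODE, and for *Anxa8* these are chr14:34085978 and chr14:34085981. In the other windows these bases were found, which does not show that RefSeq and GENCODE starts are the same. Letters were searched on both strands, and shares refer to 32817 windows of this length. The TATA box was searched as TATAAA (12.4% of windows), the GC box as GGGCGG (32.7%), the CCAAT box as CCAAT (33.8%) and the AP-1 site as TGANTCA (6.75%). The STAT site was searched as TTCNNNGAA (7.01%), the E box as CACGTG (6.02%) and the glucocorticoid receptor half-site as AGAACA (16.1%). The *Anxa1* window, chr19:20390672-20390921 on the minus strand, has a GC content of 46% against a median of 52.4%, and TATAAA was its 1 match, beginning 32 bases before the start. A longer GENCODE transcript begins upstream, so the window is also exon, and 30 bases (chr19:20390686-20390715, minus strand, TATAAA in capitals) are given.
Anxa1: cagttcatatccTATAAAatcaggagtcca
The *Anxa11* window (chr14:25841905-25842154, plus strand, GC content 58%) lies outside annotated exons and holds 3 GC boxes, written in capitals on the strand shown as CCGCCC, that begin 53, 34 and 15 bases before the start and do not overlap other motifs searched.
Anxa11: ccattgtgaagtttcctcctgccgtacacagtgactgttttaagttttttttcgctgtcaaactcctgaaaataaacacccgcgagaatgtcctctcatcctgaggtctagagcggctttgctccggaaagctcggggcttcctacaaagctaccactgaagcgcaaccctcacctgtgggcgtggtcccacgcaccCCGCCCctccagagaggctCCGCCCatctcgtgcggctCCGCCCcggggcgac
The *Anxa5* window (chr3:36475888-36476137, minus strand, GC content 58.8%) holds none of these letters, and 201 of its 250 bases are first exon of *1810062G17Rik*, a gene that runs the other way. The 42 bases between the annotated starts of both genes (chr3:36475895-36475936, minus strand) are these.
Anxa5: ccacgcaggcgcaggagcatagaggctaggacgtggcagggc
A match of letters is a description of the window and does not show that a factor binds there.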

How the data were processed

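Tag counts per gene symbol were used as the authors deposited them, without normalization. Per the labels and methods, the authors used cutadapt 1.18 for trimming and Bowtie2 2.2.5 for mapping in one orientation to RNA of RefSeq (mm10), and counted tags per gene. How multiply mapped tags were treated, and whether molecular identifiers were used, is not given in the sources used here, and floors cover counting error only. The test took genes that reached 10 tags in 3 or more of the 6 libraries and was run in R 4.3.3 with edgeR 4.0.16 (TMM scaling, quasi-likelihood test, Benjamini-Hochberg adjustment over 9334 genes), after a check on simulated data. Normalized CPM are tags divided by the scaled library size of tested genes. The standard error was taken from the log2 fold change and its F.

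Cells came from 3 mice according to the methods. Libraries with the same number deviated together from their group means (r = 0.23, 0.21 and 0.27 over 5064 genes averaging 30 tags or more). Replicate numbers were therefore used as blocks in an alternative fit, while the main fit had the group only. The labels do not state that libraries with the same number share a mouse, and libraries with different numbers were not compared in this way. Alternatives were RLE scaling, library size only, iterative TMM, DESeq2 1.42.0, no filter, a mean of at least 10 tags, the replicate block and each library left out, with the genes tested kept as in the fit of 6 libraries. Named genes were the members, *Anxa9*, *Anxa10*, *Anxa13*, *Il11*, members of the partner lists past the adjusted p or otherwise the most abundant one, the most abundant gene of marker lists with the markers of the sort, and the 3 genes most like the member with the smallest p. *Kcnj8*, *Gfap*, *Lum*, *Col3a1*, *Pdpn*, *Thy1*, *Pla2g12a*, *S100a11*, *Axl*, *Eno1*, *Ahnak*, *Cav1* and *Col1a2* were added after their values were seen. Members and lists were chosen with earlier results of these data known. Positions and 5′ windows come from GENCODE mouse release M21 (GRCm38), and promoter windows from RefSeq.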

Additional observations from a re-analysis of the deposited data

How the results depend on the processing

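Of the 13 alternatives, 6 leave out a library. The annexin count under the call rule was 1 (*Anxa1*) in place of 2 with RLE scaling, with DESeq2 and with no filter on low genes, and 1 to 2 without 1 library, the second being *Anxa11* without EGFP-Negative replicate 2 and *Anxa8* without EGFP-Positive replicate 3. With RLE, DESeq2 and no filter *Anxa11* had log2 fold changes of -1.17, -1.18 and -1.14, and -1.41 to -0.93 without 1 library. On adjusted p alone the count was 3, rose to 5 with the replicate block, which added *Anxa2* (0.47) and *Anxa6* (-0.57), and ran from 1 to 3 without 1 library. Scaling by library size only, which moved the median of tested genes to -0.10, gave *Anxa6* -0.65. Without 1 library *Anxa5* ran from 0.54 to 0.80, *Anxa6* from -0.71 to -0.31 and *Anxa8* from -3.25 to -0.60. The *Anxa8* value of -3.25 came without EGFP-Positive replicate 3, where the EGFP-Positive libraries left had 2 and 1 tags. These were under the floor of 3 tags, so -3.25 is not an estimate of the size of that fall. *Anxa4* turned to 0.00 with no filter and ran from -0.15 to 0.06 without 1 library, all within its interval. Fits without a library have fewer samples; the cause of the other changes was not tested. Genes called over the whole table stayed within 1.5 times their count, at 916 in all. The membrane repair list had 4 genes past the adjusted p with library size only and with the replicate block, 5 with no filter and 1 to 3 without 1 library, in place of 2. Of 428 values of 33 other named or marker genes, 26 lost the adjusted p threshold, over 7 genes, and 0 reversed. These were mostly genes past the adjusted p in the main fit, so gains are not counted there; the replicate block brought *Eno1*, *Ahnak*, *Cav1* and the fibroblast marker *Col1a2* past it. *Anxa8* and *Anxa11* had 27 tags or fewer per library, and the part of depth in their values was not tested.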
